A study of Homo sapiens with 8 samples.

Results

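The MER families (medium reiterated repeats) are numbered families of interspersed human repeats, and the 207 examined here were taken from the 1264 repeat families of the deposited expression table by name alone: each name starts with MER and a digit, and names ending in -int, which are the internal parts of retroviruses, were left out. RNA was sequenced from parental THP-1, a human acute monocytic leukemia cell line labelled WT, and from DAC-resistant THP-1, a line selected by long culture under decitabine (DAC) and then kept without the drug before the experiment. Each line was given DMSO or 1 µM DAC for 6 days, which made 4 groups (parental DMSO, parental DAC, resistant DMSO and resistant DAC) of 2 libraries that the labels call biological replicates. The DAC-resistant cells are therefore 1 selected population, and any comparison with them is a comparison with that population. The question for the MER families was how their RNA stood with DAC in each line, and in the DAC-resistant line without it.

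Most MER names cover old, short elements that can no longer copy themselves. Many are long terminal repeats (LTRs), the ends of endogenous retroviruses, which hold a promoter and a polyadenylation signal and often remain alone after the internal part has been lost by recombination. Others are non-autonomous DNA transposons, the short relatives of hAT, Tc1-mariner and piggyBac elements. DNA methylation and histone methylation keep LTRs silent in most cells, and DAC, a cytidine analogue, removes DNA methylation by trapping DNA methyltransferases, which is why LTR families are commonly followed after DAC treatment.

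By the classes of the repeat annotation as commonly given, 117 members were LTRs (90 of the ERV1 class, 19 ERVL and 8 ERVK), 74 were DNA transposons (52 hAT, 18 Tc1-mariner and 4 piggyBac) and 16 were put in no class. A family's value is a sum over all of its copies in the genome, so reads from copies inside genes and from copies elsewhere cannot be told apart in it. The deposited unit is FPKM multiplied by 1000, that is, reads per kilobase of the whole family scaled by all reads on repeats, and the reads behind the values could be worked back for all 207 members. Each library held 3112423 to 3725678 reads on repeats, of which 204113 to 248477 fell on the members. Per 1000 reads on genes there were 114 to 117 reads on repeats in the 4 parental libraries and 103 to 104 in the 4 resistant ones, so a value relative to repeat reads is higher in resistant cells than one relative to gene reads, and this is stated where it turns a direction of a member or class described. SPI1 and CEBPA, transcription factors of the labelled myeloid cell type, were at 67.4 to 129 and 78.4 to 99.0 FPKM in the 8 libraries. Of the 8 markers listed for the myeloid line, 7 were lower in all 4 resistant libraries than in both parental DMSO ones and 7 were higher in both parental DAC libraries. LYZ was at 11.4 and 12.6 FPKM in parental DMSO, 46.7 and 48.9 in parental DAC and 2.88 to 4.88 in the resistant libraries, CSF1R at 13.8 and 14.6, 26.3 and 27.4, and 5.95 to 6.83, and ITGAM at 6.41 and 6.40, 11.2 and 11.5, and 1.57 to 1.93 in the same order. CD3D and CD3E of T cells and EPCAM of epithelial cells were at or below 0.426 FPKM. Markers of other cell types above 1 FPKM in some library included JCHAIN of plasma cells (1.31 to 4.35), COL1A1 of fibroblasts (0.693 and 0.641 in parental DMSO, 4.06 to 6.14 elsewhere), KRT8 of epithelial cells (1.41 and 1.12 in parental DAC) and HBB of erythroid cells (2.94 in resistant DMSO replicate 1). The monocyte marker CD14 was at 1.45 and 1.58 FPKM in parental DMSO, 19.0 and 20.8 in parental DAC and 0.750 to 1.37 in the resistant libraries, and the part of any marker in the changes of the MER families was not tested.

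The members as a whole took nearly the same share of repeat reads in every group. Their share was 6.67% and 6.60% in parental DMSO, 6.49% and 6.47% in parental DAC, 6.65% and 6.70% in resistant DMSO, and 6.67% and 6.64% in resistant DAC. Both parental DAC libraries were below the other 6. LTR members took 1.81% and 1.77% in parental DMSO, 1.84% and 1.83% in parental DAC, 1.66% and 1.68% in resistant DMSO and 1.64% and 1.63% in resistant DAC. DNA transposon members took 4.67% and 4.65%, then 4.50% and 4.49%, then 4.79% and 4.82%, and 4.83% and 4.80% in the same order of groups. As a share of repeat reads, the LTR members thus stood lowest in the resistant cells and the DNA transposon members lowest in the DAC-treated parental cells, in each case with no overlap between the groups compared. Per 1000 gene reads the order was another one. The members as a whole then came to 7.84 and 7.67 in parental DMSO, 7.42 and 7.44 in parental DAC and 6.85 to 6.94 in the 4 resistant libraries, and the DNA transposon members to 5.49 and 5.41, 5.15 and 5.17, and 4.94 to 4.99, so that both were lowest in the resistant cells. The LTR members stayed lowest there, at 1.68 to 1.74 beside 2.05 to 2.13 in the 4 parental libraries. With 2 libraries against 2, an exact permutation test of such a share cannot go below p = 0.333. In bulk RNA, fewer cells with a transcript and less of it per cell cannot be told apart.

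Levels per kilobase differed widely between members. The mean over the 8 libraries ran from 19.6 to 9152, with a median of 555, and 43 members were above 1000 (1 FPKM). DNA transposon members had a median of 850 (quartiles 475 and 1152) and LTR members one of 409 (quartiles 236 and 662). Of the members above 1000, 28 were DNA transposons, 8 had no class and 7 were LTRs. The highest values belonged to small families of the group without a class: MER136 had a mean of 9152 over 5.06 kb of annotated sequence, MER123 of 8555 over 7.58 kb, MER131 of 7954 over 122 kb and MER129 of 4383 over 20.8 kb. MER91B, a hAT element, followed at 2629. By reads the order was another one, since the families differ in length from 3.17 to 4506 kb. The hAT families MER5A, MER5B and MER20 gave a mean of 18802, 13646 and 13252 reads per library, MER58A (hAT) 8158 and MER2 (Tc1-mariner) 7320.

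Replicates agreed more closely in members with more reads. The mean absolute difference between replicates on the log2 scale had a median of 0.45 over the 42 members with under 100 reads per library, 0.13 over the 117 with 100 to 1000 and 0.054 over the 48 with 1000 or more. MER132 and MER121B had fewer than 10 reads in every library and are only counted below. To be called raised or lowered, a member had to reach 1 in size on the log2 scale with an unadjusted p no higher than 0.01, in limma fitted over all 1165 families that could be tested. The adjusted p (Benjamini-Hochberg) is over the same families. All 207 members were in that fit.

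**Figure D1:**
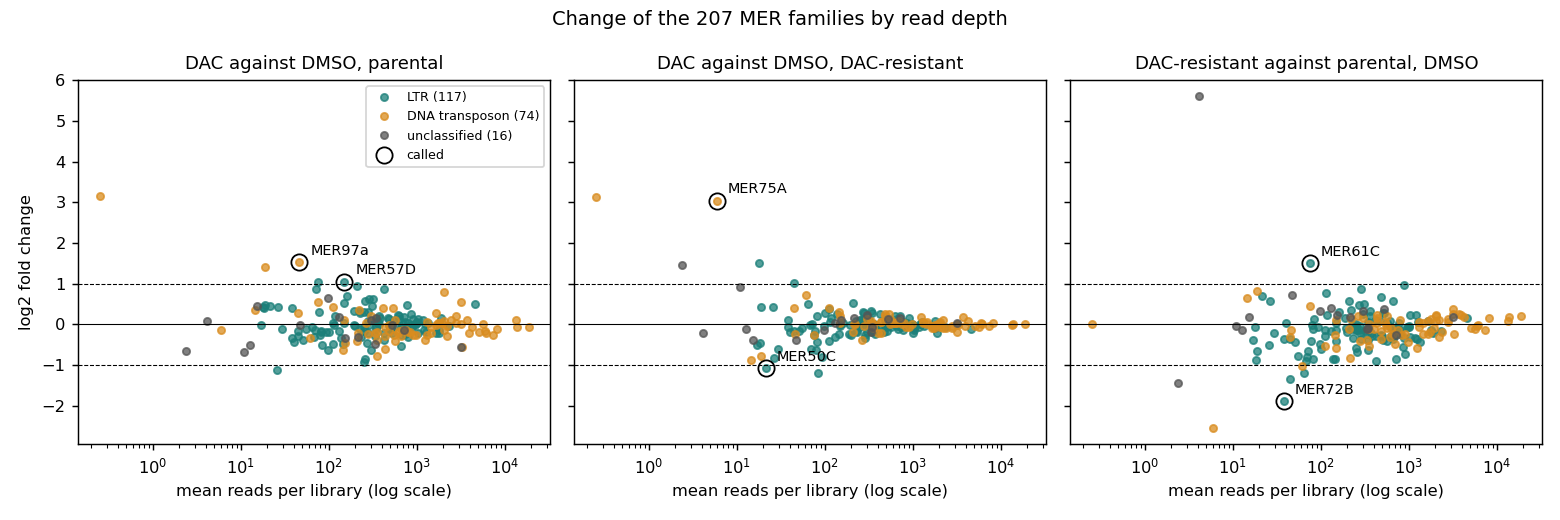
Log2 fold change of each of the 207 MER families (points, coloured by class) against its mean reads per library on a log axis, for the 3 pairwise comparisons. Dashed lines mark a log2 change of 1 in size and circles the called members, and the spread narrows from left to right as reads increase.

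DAC raised 2 members in parental cells and lowered none. The raised ones were MER97a, a hAT DNA transposon family, and MER57D, an ERV1 LTR family. Over all families tested, 3.43% were raised and 0.773% lowered, so the 2 of 207 lie below the background. MER97a had 105 and 84.8 in parental DMSO, 318 and 236 in parental DAC, 88.9 and 84.0 in resistant DMSO and 65.5 and 82.7 in resistant DAC. Both parental DAC libraries lay far above the other 6, which ranged from 65.5 to 105. The mean value rose 2.92-fold (log2 fold change 1.53, SE 0.22, adjusted p = 0.0092 by limma), on 32 to 107 reads in the 4 parental libraries. MER57D stood at 290.3 and 296 in parental DMSO, 669 and 556 in parental DAC, 224 and 217 in resistant DMSO and 211 and 235 in resistant DAC. Again the DAC-treated parental cells were alone at the top, and the resistant libraries lay below the parental DMSO pair. Its rise was 2.09-fold (log2 1.05, SE 0.11, adjusted p = 0.0031), and it fell short of the threshold of size at 0.92 on the log2 scale without parental DAC replicate 1 and at 0.65 on the TPM scale, where the median of all families was -0.42.

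Among members higher at an unadjusted p of at most 0.05, the next in size were 3 ERV1 LTR families that did not pass the call. MER61C is described with the resistant cells. MER48 was at 477 and 603 in parental DMSO, 1174 and 909.5 in parental DAC, 772 and 830.1 in resistant DMSO and 1207 and 1102 in resistant DAC. DAC-treated libraries lay above the DMSO libraries of the same line in both lines, with log2 differences of 0.94 (SE 0.16, adjusted p = 0.015) in parental and 0.53 (SE 0.16, adjusted p = 0.42) in resistant cells. MER101B was at 240.2 and 325 in parental DMSO, 477 and 549 in parental DAC, 202 and 156 in resistant DMSO and 229 and 141 in resistant DAC, a log2 difference of 0.87 with DAC in parental cells (SE 0.29, adjusted p = 0.088). The 2 lines lay apart for MER101B, with all 4 resistant libraries below the parental ones.

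At an adjusted p under 0.05 and any size, 17 members were higher with DAC in parental cells and 27 lower, or 8.21% and 13.0% of the members, beside 12.6% and 11% of all families tested. The median log2 fold change was -0.05 over the members and -0.02 over all families. At an unadjusted p no higher than 0.05 there were 26 higher and 44 lower members, or 12.6% and 21.3%, beside 17.9% and 19.2% of all families tested. The members' counts became 8 and 133 on the TPM scale, where the median of all families was -0.42. Of the members, 175 changed by less than 0.5 on the log2 scale, and for 165 the 95% interval of the change lay within 1 in either direction. No member was called lower, and of those lower at an adjusted p under 0.05 the one that changed most in size was MER61F, an ERV1 LTR family. It had 1402 and 1482 in parental DMSO, 744 and 763 in parental DAC, 948 and 974 in resistant DMSO and 1021 and 1046 in resistant DAC. The replicates lay close together in each group, with parental DMSO above and parental DAC below all others. With DAC in parental cells it fell by 0.93 on the log2 scale (SE 0.04, adjusted p = 1.2e-04).

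MER66A, another ERV1 LTR family, fell by 0.84 (SE 0.12, adjusted p = 0.0083), from 875 and 911 in parental DMSO to 469 and 527 in parental DAC. The hAT family MER113B dropped by 0.78 (SE 0.12, adjusted p = 0.011), from 1831 and 1440 to 921 and 970. MER30B, also hAT, went from 1173 and 1392 to 791 and 852, a log2 change of -0.64 (SE 0.15, adjusted p = 0.037), and MER61E, of ERV1, from 737 and 724 to 460 and 478, also -0.64 (SE 0.05, adjusted p = 0.0012). In all 4 families, picked for the size of their fall, the DAC and DMSO libraries of parental cells did not overlap. Both DAC libraries lay below both DMSO libraries of parental cells in 72 of the 207 members and in 398 of the 1165 families tested. MER131, 1 of the families with the highest level, held 8201 and 7847 in parental DMSO, 5562 and 5289 in parental DAC, 8948 and 9172 in resistant DMSO and 9214 and 9395 in resistant DAC. The parental DAC libraries were the lowest of all, and the family fell by 0.56 in parental cells (SE 0.05, adjusted p = 0.0016). With DAC in resistant cells the difference was 0.04 (SE 0.05), and the difference between its DAC effects in the 2 lines was 0.60 (SE 0.07, adjusted p = 0.0061).

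**Figure D2:**
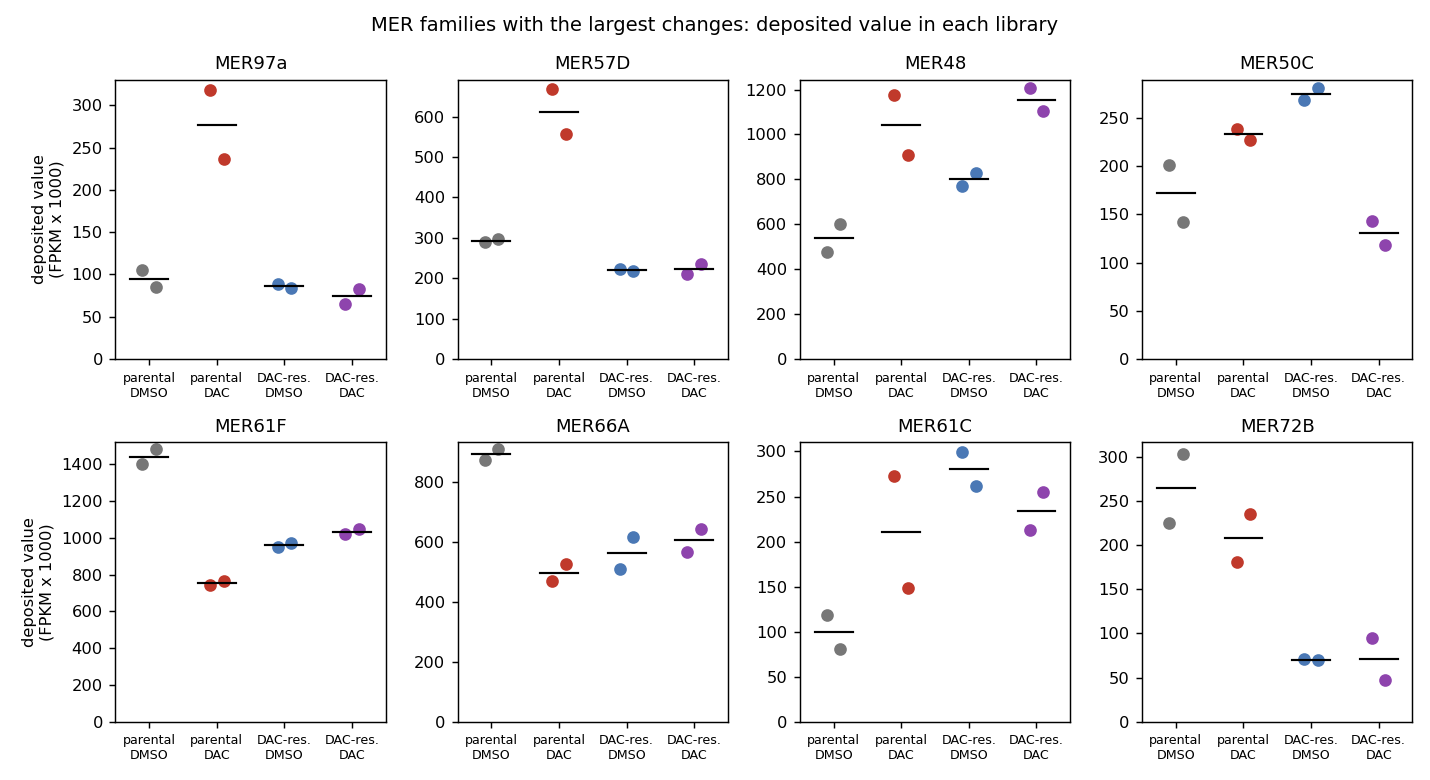
Deposited value (FPKM multiplied by 1000, linear axes from 0) of 8 MER families in each of the 8 libraries. Points are libraries and bars the means of 2; the parental DAC points stand alone at the top for MER97a and MER57D and lowest for MER61F, and the resistant DMSO points are high for MER61C and low for MER72B.

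Seen by superfamily, LTR members moved in both directions with DAC in parental cells and the Tc1-mariner members mostly downwards. Of the 117 LTR members, 10 were higher and 10 lower at an adjusted p under 0.05, beside 12.6% and 11% of all families tested, with a median log2 fold change of -0.02. Of the 74 DNA transposon members, 7 were higher and 15 lower, with a median of -0.09. Among the 18 Tc1-mariner families, the median was -0.21, 5 were lower at that threshold and none higher, and at an unadjusted p no higher than 0.05 there were 10 lower and 1 higher, beside 19.2% and 17.9% of all families tested. MER2, the family with most reads among them, had 1110 and 1112 in parental DMSO, 938 and 901 in parental DAC, 986 and 1027 in resistant DMSO and 973 and 989 in resistant DAC. Parental DMSO lay above every other group, and the DAC change in parental cells was -0.27 (SE 0.04, adjusted p = 0.0074). MER6 (-0.42), MER44D (-0.39), MER47A (-0.28) and MER8 (-0.25) made up the other 4. The median over the Tc1-mariner members was 0.02 with DAC in the resistant cells, where no family passed an adjusted p of 0.05. These medians are on the deposited scale of the repeat reads. Rescaling every library to the same sum of values (TPM) moved the median of all families with DAC in parental cells to -0.42 and that of the Tc1-mariner members to -0.62.

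**Figure D3:**
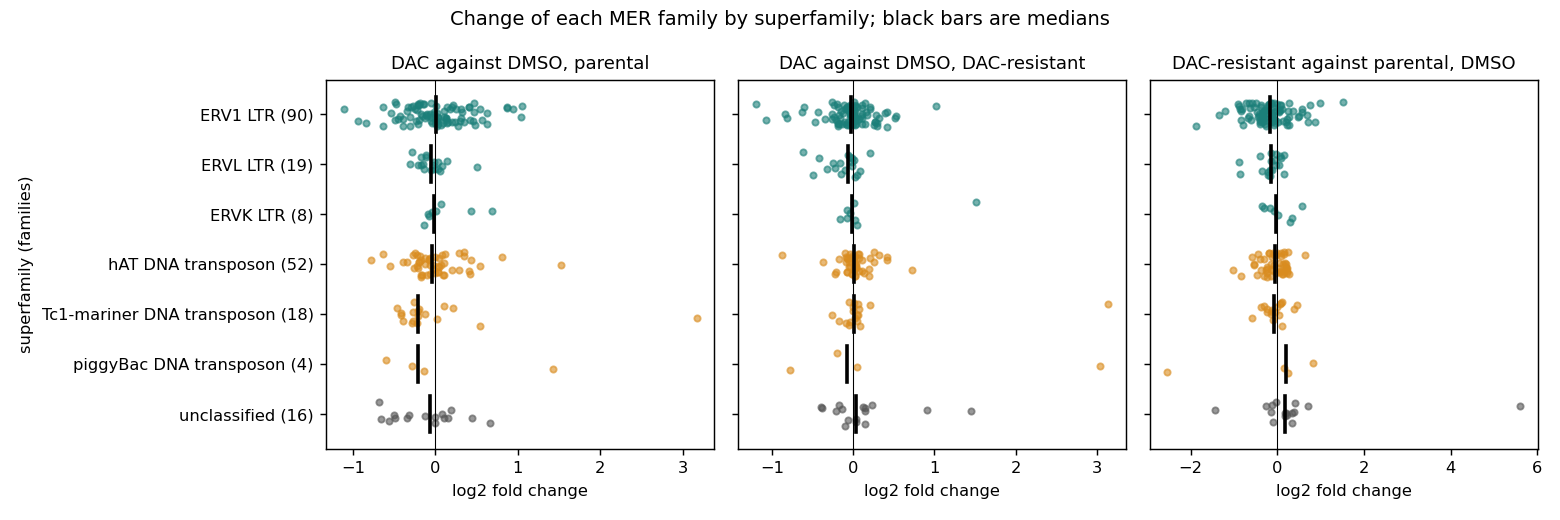
Log2 fold change of each MER family (points) by superfamily for the 3 pairwise comparisons, with the number of families in brackets and a black bar at the median. The bar of the 18 Tc1-mariner families lies at -0.21 with DAC in parental cells and near 0 in resistant cells; the points beyond 2 in size have a mean of under 10 reads per library.

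DAC raised 1 member and lowered 1 member in the resistant cells, where 0.258% of all families tested were raised and 0.258% lowered. No family of any kind passed an adjusted p of 0.05 there, while 10 members were higher and 12 lower at an unadjusted p no higher than 0.05, beside 5.24% and 4.81% of all families. The raised member was MER75A, a short piggyBac family of 6.72 kb. It had 15 and 3 reads in parental DMSO, 7 and 4 in parental DAC, 1 and 1 in resistant DMSO and 9 and 8 in resistant DAC. Read for read, resistant DAC exceeded resistant DMSO 8.40-fold, with a 95% counting interval (exact binomial) from 1.995 to 75 that covers counting error only, and the adjusted p was 0.33. Leaving out any single resistant library ended this call, at log2 values of 2.98 to 3.10.

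The lowered member was MER50C, an ERV1 LTR family with 12 to 28 reads per library. Its values were 201 and 142 in parental DMSO, 238 and 228 in parental DAC, 269 and 281 in resistant DMSO and 143 and 119 in resistant DAC. Resistant DMSO was the highest group, and of the resistant DAC libraries 1 lay beside the lower of the parental DMSO libraries and the other below it. The DAC change in resistant cells was -1.07 (SE 0.19, adjusted p = 0.21). Leaving out resistant DMSO replicate 1 or 2, or resistant DAC replicate 2, ended the call, at -1.10, -1.04 and -0.94, as did voom on the recovered reads, at -1.05. MER57C2 showed the opposite order at 47.8 and 45.5 in resistant DMSO and 99.3 and 91.8 in resistant DAC, a log2 difference of 1.02 (SE 0.36, adjusted p = 0.49), and its parental DMSO libraries lay apart at 175 and 82.3.

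The remaining LTR families that the rule named for resistant cells had smaller differences. MER51B was at 421 and 413 with DMSO and 503 and 538 with DAC (log2 0.32, SE 0.07), and MER41D at 491 and 527 against 615 and 616 (0.27, SE 0.05). MER41D also stood higher with DAC in parental cells, at 651 and 644 against 528 and 520 (0.31, SE 0.05, adjusted p = 0.010), although not after rescaling to TPM. In the other direction MER95 was at 694 and 903 with DMSO and 513 and 397 with DAC (-0.81, SE 0.17), MER92D at 211 and 201 against 98.6 and 134 (-0.84, SE 0.23), MER66D at 256 and 195 against 168 and 128 (-0.60, SE 0.21), and MER101 at 241 and 215 against 161 and 178 (-0.43, SE 0.13). The adjusted p of these 6 in resistant cells was 0.19 or more. MER95, MER92D, MER66D and MER101 each had a mean of under 100 reads per library. Over the members the median was 0.0017 and over all families 0.014. The change was under 0.5 in size for 189 members, and for 178 the 95% interval lay within 1 in either direction.

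The difference between the DAC effects in the 2 lines was itself tested, as the DAC effect in resistant cells minus that in parental cells. It was called for 4 members, 1 upwards and 3 downwards, beside 1.12% and 3.26% of all families, and at an adjusted p under 0.05 and any size it was above 0 for 13 members and below 0 for 9, beside 6.44% and 6.87%. At an unadjusted p no higher than 0.05 there were 34 members above and 21 below 0, or 16.4% and 10.1%, beside 15.2% and 13.0% of all families tested. The members' counts became 100 and 8 on the TPM scale, where the median of all families was 0.36. MER97a (-1.75, SE 0.32, adjusted p = 0.028) and MER57D (-1.04, SE 0.16, adjusted p = 0.016) had risen with DAC in parental cells and stood at -0.23 and 0.01 in resistant cells. For MER57D, the difference without parental DAC replicate 1 was -0.91 and without resistant DAC replicate 1 it was -0.96, both short of the threshold of size, as was the -0.69 on the TPM scale. MER50C (-1.53, SE 0.27, adjusted p = 0.027) stood at 0.46 in parental and -1.07 in resistant cells, and its call was lost by a narrow margin without parental DAC replicate 1 or resistant DMSO replicate 2, and with voom on the recovered reads, each at -1.50. MER61F went the other way (1.04, SE 0.06, adjusted p = 4.6e-04), with -0.93 in parental and 0.10 in resistant cells, and reached 1.00 to 2 decimals, just under the threshold, without parental DMSO replicate 2 and 0.53, also not called, with a pseudocount of 1 FPKM and families of at least 1 FPKM. Of the other members named, MER75A (3.18), MER61C (-1.30) and MER92D (-1.26) passed the threshold of size but not that of p. MER52C (-0.97), MER30B (0.95) and MER66A (0.95) came near the size of a call, and MER51B (0.61) and MER57E1 (0.75) also passed an adjusted p of 0.05.

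The resistant cells in DMSO had 1 member raised and 1 lowered relative to parental cells in DMSO, beside 2.49% and 2.15% of all families tested. This comparison and that of DAC in parental cells use the same parental DMSO libraries. The raised member was MER61C, an ERV1 LTR family with a mean of under 100 reads per library. It had values of 119 and 80.4 in parental DMSO, 273 and 148 in parental DAC, 299 and 262 in resistant DMSO and 213 and 255 in resistant DAC. Both resistant groups lay above the parental DMSO pair without overlap, and the parental DAC pair ranged from near the parental DMSO values to near the resistant ones. The resistant level was 2.82-fold that of parental cells (log2 1.51, SE 0.34, adjusted p = 0.028), and the DAC difference in parental cells was 1.03 (SE 0.34, adjusted p = 0.088). Scaled by gene reads, the difference between the lines was 1.33 and was not called. The lowered member was MER72B, also ERV1, with 225 and 304 in parental DMSO, 181 and 236 in parental DAC, 70.7 and 69.6 in resistant DMSO and 95 and 47.1 in resistant DAC. Its 4 resistant libraries were below the 4 parental ones, and it fell by 1.88 (SE 0.37, adjusted p = 0.019) on 16 to 79 reads in the 4 DMSO libraries. Both calls were lost without parental DMSO replicate 2 (1.23 and -1.67), without resistant DMSO replicate 1 (1.41 and -1.89) and without resistant DMSO replicate 2 (1.604 and -1.87).

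At an adjusted p under 0.05 and any size, 22 members were higher in the resistant cells and 44 lower, or 10.6% and 21.3% of the members, beside 11.9% and 17.6% of all families tested. Of the LTR members 12 were higher and 28 lower, of the DNA transposons 8 and 15, and of the families without a class 2 and 1. The median was -0.12 over the members and -0.07 over all families, -0.15 over LTRs, -0.05 over DNA transposons and 0.18 over those without a class. Scaling by gene reads moved the median of all families to -0.25 and that of the members to -0.29, with -0.32 over LTRs, -0.23 over DNA transposons and 0.0050 over those without a class. With this scaling 10 members were lowered and none raised, beside 48 lowered and 20 raised of the 1165 families tested. The change was under 0.5 in size for 166 members, and the 95% interval lay within 1 in either direction for 162.

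**Figure D4:**
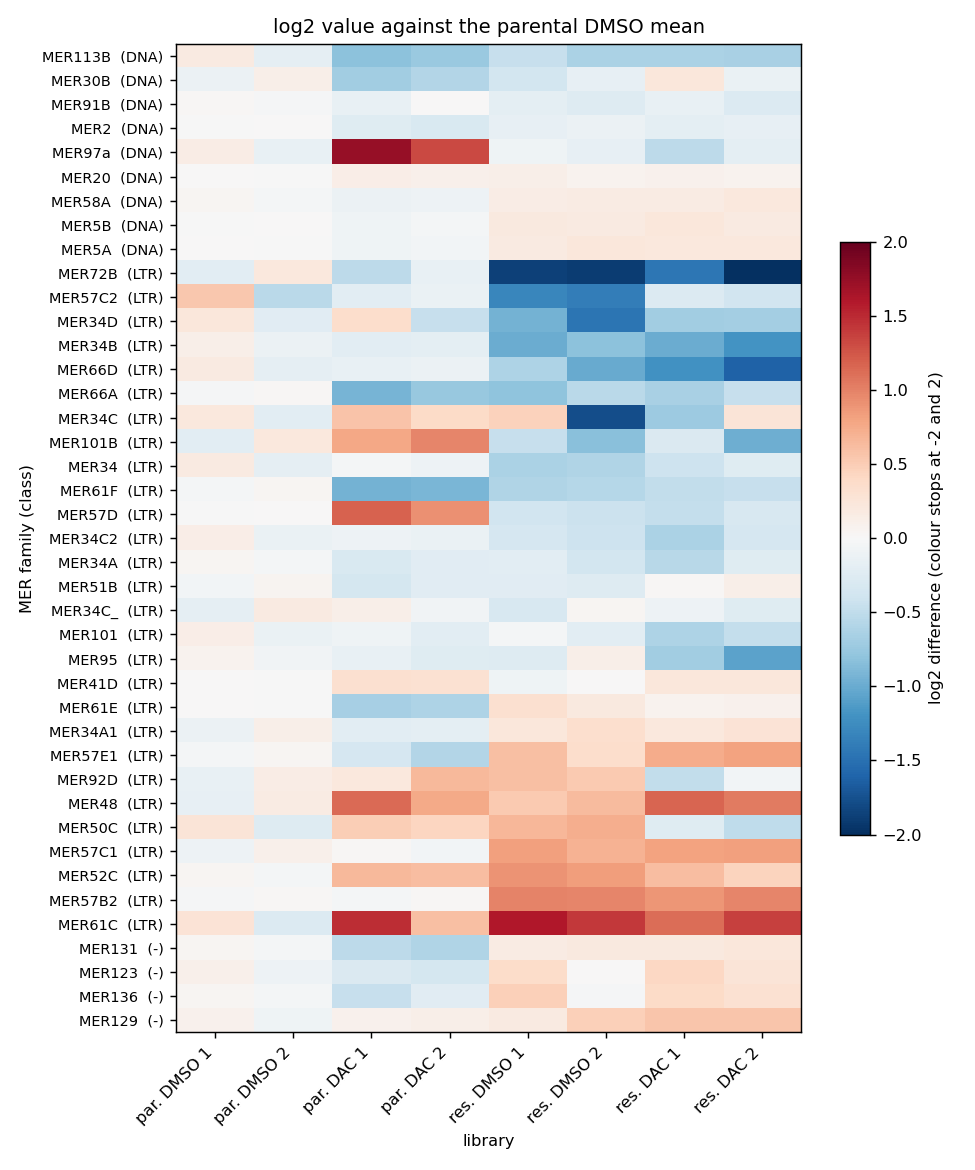
Log2 value of the 41 named MER families with at least 10 mean reads (rows, class in brackets) in each of the 8 libraries (columns), relative to the mean of the parental DMSO libraries; red is higher and blue lower. MER61C, MER57B2, MER52C and MER57C1 are red and MER72B, MER34B and MER34D blue in the resistant DMSO columns.

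Of the 31 MER numbers with 3 or more families, 23 had families on both sides of 0 in resistant against parental cells in DMSO, 7 had all families lower and 1 all higher. Scaled by gene reads, 17 had both signs and 14 had all families lower, and after quantile normalization 26 had both signs. MER57 and MER61, whose families lay far apart, are described next. MER57B2, an ERV1 LTR, was at 567 and 586 in parental DMSO, 562 and 588 in parental DAC, 1144 and 1130 in resistant DMSO and 1067 and 1132 in resistant DAC. The 4 resistant libraries lay close together and far above the 4 parental ones (log2 0.98, SE 0.05, adjusted p = 3.0e-04), with DAC differences of -0.0044 in parental and -0.05 in resistant cells (SE 0.05 each). MER57C1 had the same order, at 465 and 541 in parental DMSO and 887 and 816 in resistant DMSO (0.76, SE 0.09, adjusted p = 0.0039). MER57C2 was lower in the resistant cells by 1.35 (SE 0.36, adjusted p = 0.045). MER57D differed by -0.41 (SE 0.11, adjusted p = 0.044) and MER57E1 by 0.48 (SE 0.12, adjusted p = 0.036). Over the 10 MER57 families the change ran from -1.35 to 0.98, with a median of -0.19. The internal parts MER57-int and MER57A-int differed by 0.05 (SE 0.15) and 0.25 (SE 0.06).

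In the MER61 group of 6 LTR families, the changes in resistant cells ran from -0.86 to 1.51, with MER61C at the top, MER61E at 0.26 and MER61F at -0.58 (SE 0.04, adjusted p = 7.9e-04). With DAC in parental cells they ran from -0.93 to 1.03. MER61-int, the internal part, was at -0.02 (SE 0.06) with DAC in parental cells and 0.29 (SE 0.06, adjusted p = 0.019) in resistant cells. Members of 1 number therefore lay on both sides of their internal part.

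MER52C, an ERV1 LTR family, was higher in the resistant cells and with DAC in parental cells. It had 191 and 181 in parental DMSO, 290.1 and 285 in parental DAC, 349 and 333 in resistant DMSO and 284 and 253 in resistant DAC. Parental DMSO was the lowest group and resistant DMSO the highest (log2 0.87, SE 0.09, adjusted p = 0.0024), and DAC in parental cells gave 0.63 (SE 0.09, adjusted p = 0.0078). Its internal part, MER52-int, differed by 0.57 (SE 0.20, adjusted p = 0.086) in the resistant cells. MER66-int (-0.20, SE 0.10) stood nearer to 0 than MER66A (-0.67, SE 0.12, adjusted p = 0.015) and MER66D (-0.81, SE 0.21, adjusted p = 0.041). The other internal parts with the number of a named LTR family, MER41-int, MER50-int, MER51-int, MER92-int and MER101-int, lay between -0.64 and -0.14 in this comparison.

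MER34, an ERV1 LTR family, is 1 of the repeats that the study followed by name. By qRT-PCR the study reported much more MER34 RNA in DAC-resistant than in parental THP-1, the opposite direction to the family value given here. That assay is unlike a sum of reads over all copies of a family, and the reason for the difference was not tested. In the deposited values MER34 was at 374 and 293 in parental DMSO, 321 and 309.6 in parental DAC, 212 and 217 in resistant DMSO and 247 and 279 in resistant DAC. The 4 resistant libraries were below the 4 parental ones, and in DMSO the resistant cells were lower by 0.62 on the log2 scale (SE 0.14, adjusted p = 0.025). DAC gave -0.07 (SE 0.14, adjusted p = 0.74) in parental cells, which became 0.11 without parental DMSO replicate 1, and 0.29 (SE 0.14, adjusted p = 0.55) in resistant cells.

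Of the 8 families named MER34 with or without a letter, MER34B, MER34D and MER34 were lower in the resistant cells at an adjusted p under 0.05 and none was higher, beside 17.6% and 11.9% of all families tested. MER34B was at 884 and 754 in parental DMSO, 703 and 711 in parental DAC, 409.6 and 459.6 in resistant DMSO and 409.6 and 355 in resistant DAC. Its resistant libraries reached at most 460 and its parental ones at least 703, and the family fell by 0.91 (SE 0.11, adjusted p = 0.0049). MER34D was at 324 and 238 in parental DMSO and 144 and 101 in resistant DMSO (-1.20, SE 0.33, adjusted p = 0.048). MER34C2 (-0.38, adjusted p = 0.082), MER34A (-0.29, adjusted p = 0.14) and MER34C_ (-0.13, adjusted p = 0.62) did not pass, and MER34C_ stood at 0.05 after quantile normalization. MER34C (-0.65, SE 0.77, adjusted p = 0.56) had 5 to 26 reads per library. MER34A1 was the exception in sign at 567 and 667 in parental DMSO and 719 and 776 in resistant DMSO (0.28, SE 0.09, adjusted p = 0.064).

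Of the internal parts of the same number, MER34B-int was higher in the resistant cells and MER34-int did not pass. MER34B-int had 4845 and 4991 in parental DMSO, 5852 and 5684 in parental DAC, 6685 and 7283 in resistant DMSO and 7509 and 7095 in resistant DAC. The lowest resistant library was above the highest parental one, and the difference in DMSO was 0.50 (SE 0.06, adjusted p = 0.0043), against the fall of the MER34B LTR. MER34-int was at 433 and 306 in parental DMSO, 386 and 381 in parental DAC, 528 and 483 in resistant DMSO and 457 and 444 in resistant DAC, a difference of 0.47 (SE 0.16, adjusted p = 0.086).

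**Figure D5:**
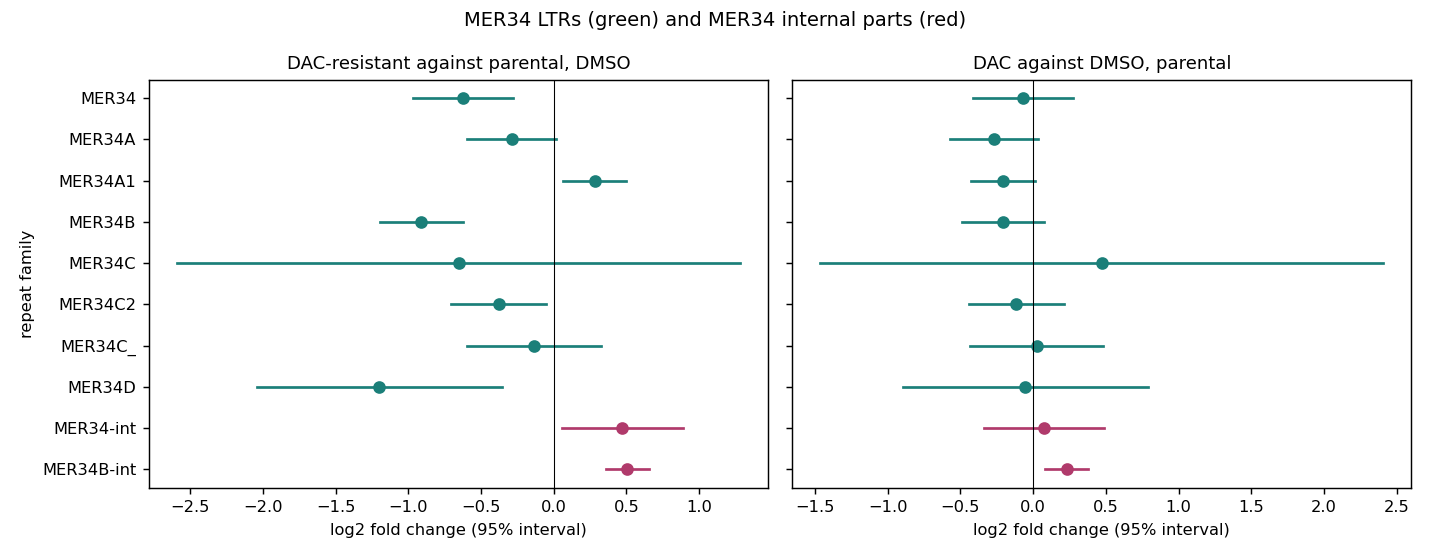
Log2 fold change with its 95% interval for the 8 MER34 LTR families (green) and the 2 internal parts MER34-int and MER34B-int (red), in resistant against parental cells in DMSO and with DAC in parental cells. In the first panel MER34B and MER34D lie furthest left and the 2 internal parts to the right of 0; in the second most intervals cross 0.

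In resistant against parental cells in DMSO, the families described next, chosen for the highest level or the most reads, differed by 0.33 or less in size. MER5A had 1197 and 1182 in parental DMSO, 1121 and 1139 in parental DAC, 1344 and 1394 in resistant DMSO and 1384 and 1384 in resistant DAC. The resistant libraries lay above all parental ones, and the difference in DMSO was 0.20 (SE 0.03, adjusted p = 0.0090). MER5B differed by 0.19 (SE 0.03, adjusted p = 0.010) and MER58A by 0.16 (SE 0.04, adjusted p = 0.026). Scaled by gene reads, the 3 differences came to 0.02, 0.01 and -0.02. MER20 rose by 0.12 with DAC in parental cells (SE 0.03, adjusted p = 0.048), which became -0.28 on the TPM scale, and differed by 0.09 (SE 0.03, adjusted p = 0.077) in resistant cells, which became -0.08 when scaled by gene reads. MER91B (-0.23, SE 0.07) did not pass. Among those without a class, MER131 differed by 0.18 (SE 0.05, adjusted p = 0.047), which came to -0.0017 when scaled by gene reads, MER129 by 0.33 (SE 0.11), MER123 by 0.19 (SE 0.14) and MER136 by 0.22 (SE 0.18), of which only the first passed an adjusted p of 0.05. Scaled by gene reads, the last 3 came to 0.15, 0.01 and 0.05.

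All 22 genes listed for the machinery that silences such repeats were among the 14899 genes tested. At an adjusted p under 0.05 and any size, 10 of the 22 were higher and 4 lower with DAC in parental cells, beside 33.6% and 24.1% of all genes. With DAC in resistant cells 0 were higher and 7 lower, beside 5.88% and 5.35%. In resistant against parental cells in DMSO 9 were higher and 5 lower, beside 31.3% and 26.2%. DNMT1, the maintenance DNA methyltransferase that DAC traps, differed by 0.25 (SE 0.03) with DAC in parental cells and by -0.39 (SE 0.03) with DAC in resistant cells. HELLS, a chromatin remodeller needed for repeat methylation, differed by -0.45 (SE 0.06) with DAC in parental cells and by -0.46 (SE 0.06) in resistant against parental cells in DMSO. TASOR, a subunit of the HUSH complex that silences repeats, differed by -0.42 (SE 0.03) in the same comparison, and PPHLN1, another subunit of it, by 0.72 (SE 0.06). Also higher there were CBX5 (0.78, SE 0.03), CBX3 (0.60, SE 0.04) and CBX1 (0.28, SE 0.03), which encode heterochromatin protein 1 isoforms. So was ZNF93 (0.59, SE 0.04), a KRAB zinc finger gene. With DAC in parental cells CBX5 differed by -0.69 (SE 0.03), CBX3 by 0.41 (SE 0.04) and CBX1 by 0.37 (SE 0.03). The part of the listed genes in the changes of the MER families was not tested.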

How the data were processed

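RNA of 8 THP-1 libraries was sequenced after an mRNA library kit. The authors trimmed reads with cutadapt 1.9.1, aligned them to hg38 with HISAT2 2.1.0, sorted them with SAMtools 1.6 and counted them with HTSeq 0.13.5 on genes and, by family, on the RepeatMasker annotation used for transposable elements. Whether counting used the strand, or reads with several alignments, is not given in the sources used here, so related families may share reads. The authors deposited FPKM multiplied by 1000, with repeat families scaled by their own read total.

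Whole reads were recovered from the steps between libraries for 99.4% of the families above 0. The tolerance was 0.003 of a read, and wider for families with very many reads. Families with a deposited value of at least 1 in 2 libraries were fitted as log2(value + 1), so fold changes are on that scale, with limma 3.58.1 in R 4.3.3 over all 8 libraries in 4 groups (1.32 prior and 4 residual degrees of freedom). Genes were fitted apart, and tables and intervals were made with Python 3.11.15 and scipy 1.17.1. The fit was also run on simulated data, of which no result is given here. Replicates differed by more than sampling noise. In none of the 4 groups did both replicates hold the same value above 0 for a tested family. The p-values measure the spread between the libraries of a group.

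Named members were those called in any comparison, the largest changes at an unadjusted p of at most 0.05 up to 5 per direction, all MER34 families, the 5 highest by value and by reads, and internal parts with the number of a named LTR. MER6, MER8, MER44D and MER47A, and the internal parts MER31-int, MER65-int and MER84-int, fall outside that rule and were chosen after their values were seen. Members, classes and lists were chosen with earlier results of these data known. Classes are from general knowledge of the repeat annotation. The alternatives were other pseudocounts and filters, scaling by gene reads, quantile normalization, TPM, a block for replicate number, fits of only 4 libraries, voom on recovered reads, adjusted p-values and leaving out each library. No consensus sequence of a MER family was used here. Of the cell type markers, 2 are not reported here.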

Additional observations from a re-analysis of the deposited data

Results flagged for a closer look

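The DAC effect differed between the lines for 4 members by the test of the difference itself, given as resistant minus parental. MER97a had a difference of -1.75 and MER57D of -1.04, where DAC gave 1.53 and 1.05 in parental cells. MER50C had one of -1.53, on 12 to 28 reads per library. MER61F had one of 1.04, where DAC gave -0.93 in parental cells. Beside these 4 of 207 members, 1.12% of all families tested were called upwards and 3.26% downwards.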

How the results depend on the processing

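In DAC against DMSO in parental cells, the members' median of -0.05 became -0.013 with a pseudocount of 1 FPKM and only families of at least 1 FPKM, -0.082 with quantile normalization, -0.074 when scaled by gene reads and -0.45 on the TPM scale, where 1 member was raised and 6 lowered. Of all 1165 families, 22 were raised and 40 lowered on the TPM scale. The raised count of members was 0 with the 1 FPKM setting and 1 among families with a mean of at least 100 reads. In DAC against DMSO in resistant cells, the median of 0.0017 became -0.014 with quantile normalization and -0.054 on the TPM scale. The raised count there was 0 with the 1 FPKM setting, at least 100 reads, no filter, quantile normalization, voom or adjusted p-values, and 2 in a fit of only the 4 libraries compared, and the lowered count was 0 with the 1 FPKM setting, at least 100 reads, voom or adjusted p-values. In resistant against parental cells in DMSO, the median of -0.12 became 0.044, -0.048, -0.29 and -0.23 with the 1 FPKM setting, quantile normalization, gene reads and TPM. The raised count of 1 became 0 with the 1 FPKM setting, at least 100 reads or gene reads, and 2 with quantile normalization. The lowered count of 1 became 0 with the 1 FPKM setting or at least 100 reads, 3 with voom or adjusted p-values, 5 on the TPM scale and 10 with gene reads. Of all 1165 families, 25 were lowered in the main fit, 31 with voom, 37 on the TPM scale and 48 with gene reads. For the difference between the DAC effects, the median of 0.0089 became 0.055, 0.048, 0.030 and 0.36 in the same order of settings, with 0 members raised and 0 lowered at the 1 FPKM setting, 1 lowered at 100 reads and 6 raised on the TPM scale. On that scale 37 of all 1165 families were raised. The 100 read setting tests fewer families, the 1 FPKM setting changes the pseudocount and the filter together, and the causes of the shifts were not tested.

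Leaving out 1 library at a time gave 1 to 4 members raised with DAC in parental cells (1 without parental DAC replicate 1, 4 without parental DAC replicate 2), with medians from -0.053 to -0.021. In resistant cells DAC then raised 0 members, whichever of the 4 libraries was left out, and lowered 0 to 1 (0 without resistant DMSO replicate 2 or resistant DAC replicate 2), with medians from -0.013 to -0.0045, all below 0 where the median over all libraries was 0.0017. In resistant against parental cells, 0 to 1 were raised (0 without either resistant DMSO replicate) and 1 to 3 lowered (3 without parental DMSO replicate 2), with medians from -0.12 to -0.072. For the difference between the DAC effects, 1 to 4 were raised (4 without parental DAC replicate 2, 3 without parental DMSO replicate 1, and 2 without parental DMSO replicate 2, resistant DMSO replicate 2 or either resistant DAC replicate) and 1 to 5 lowered (1 without parental DAC replicate 1, 5 without resistant DMSO replicate 1 or resistant DAC replicate 2), with medians from 0.0054 to 0.061. These counts do not say which members were called. Of the single families followed, MER34 with DAC in parental cells changed sign, at 0.11 without parental DMSO replicate 1, where leaving out each library gave -0.25 to 0.11.

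The replicate numbers pair nothing that the labels name, and deviations of libraries with the same number correlated at -0.0597 to 0.196 across families. With the replicate number as a block, 2 members were lowered in resistant against parental cells instead of 1, and 4 instead of 3 in the difference between the DAC effects. The other counts of called members were as without the block.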

Other observations

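The MER internal parts hold values that the comparisons of the members did not use. Of the 25 internal parts, 2 were lowered in resistant against parental cells in DMSO and none was raised, beside 2.15% and 2.49% of all families tested. MER31-int, of an ERV1 retrovirus, was at 742 and 626 in parental DMSO and 320.2 and 345 in resistant DMSO (-1.03, SE 0.09, adjusted p = 0.0019 by limma). MER84-int had 21 and 11 reads in parental DMSO and 1 and 2 in resistant DMSO (-2.99, SE 0.62, adjusted p = 0.022). MER65-int came near the size of a call, at 459.5 and 445 against 243 and 231 (-0.93, SE 0.08, adjusted p = 0.0014). With DAC in parental cells none of the 25 was called, and their changes ran from -0.58 to 0.73.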
